A study of Mus musculus with 8 samples.

Results

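The genes examined here encode the machinery that puts peptides on MHC class I molecules, and they were taken from the raw count table by symbol. The list held 10 symbols (B2m, H2-K1, H2-D1, Tap1, Tap2, Tapbp, Psmb8, Psmb9, Psmb10 and Nlrc5). All 10 were among the 24062 genes of the table, and all 10 were among the 13197 genes that passed the filter on low counts. The rule used symbols alone and no measured value, though the list was drawn up with earlier results of these data known.

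RNA-seq compared immature myeloid cells (IMCs) from mice that lack PARP1 or PARP2 in the myeloid lineage with IMCs from their controls, to learn which genes depend on each of these poly(ADP-ribose) polymerases. PARP1 WT cells carried PARP1 flox/flox, and PARP1CKO cells carried PARP1 flox/flox with lysozyme-Cre, which acts in myeloid cells. PARP2 WT and PARP2CKO cells carried PARP2 flox/flox without and with the same Cre, so every group, controls included, was homozygous for a floxed allele and no group carried Cre without one. The mice were C57BL/6 and 2 months of age, the controls were littermates in the study's description, and their bone marrow was grown for 3 days with 40 ng/mL of M-CSF, a growth factor for monocytes and macrophages. Each of the 4 groups had 2 libraries, 8 in all, and the labels do not say whether the 2 came from separate animals. P-values therefore measure the spread between these libraries, which may be technical. A difference between the PARP1 line and the PARP2 line cannot be told apart from any other difference between those mice or their cultures.

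The libraries held from 37852450 to 61845125 gene counts each. Parp1 had 63.2 and 59.1 CPM (counts per 1e6 of library size) in PARP1CKO against 202 and 211 CPM in PARP1 WT, and Parp2 had 25.7 and 25.6 CPM in PARP2CKO against 48.2 and 48.3 CPM in PARP2 WT. In PARP2 WT Parp1 itself was uneven, at 251 and 155 CPM. The source of the RNA left in the CKO groups was not tested, and in such bulk RNA fewer cells of a type and less RNA per cell cannot be told apart. Itgam, which encodes the CD11b by which IMCs are defined, lay between 881 and 1035 CPM, and Ly6c2, part of the Gr1 antigen, between 53.9 and 72.2 CPM. Ly6g was not analysed here. Macrophage markers were also high, with 5 genes that summed to between 3386 and 3988 CPM. The share of each cell type in these cultures was not tested.

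MHC class I molecules show fragments of a cell's own proteins to CD8+ T cells. The immunoproteasome cuts the proteins, the TAP transporter carries the peptides into the endoplasmic reticulum, tapasin helps to load them on a heavy chain, and the heavy chain goes to the surface only with its light chain, beta-2 microglobulin. NLRC5, a coactivator without DNA-binding activity of its own, drives transcription of these genes through an upstream module shared by class I promoters. Interferons raise the whole pathway, and myeloid cells use it constitutively.

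The members lie on 3 chromosomes (GENCODE M21 on GRCm38, the mm10 build). On chromosome 17, 7 of them fall in the major histocompatibility complex, from Tapbp at chr17:33915899-33929292 to H2-D1 at chr17:35262730-35267499. H2-K1 is at chr17:33996017-34000347. Psmb9 (chr17:34181987-34187764), Tap1 (chr17:34187553-34197225), Psmb8 (chr17:34197721-34201454) and Tap2 (chr17:34203527-34216321) follow each other, and Psmb9 and Tap1 share 212 exonic bases on opposite strands. Nlrc5 (chr8:94434356-94527272) and Psmb10 (chr8:105935735-105938444) are on chromosome 8. B2m (chr2:122147686-122153083) is on chromosome 2.

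The upstream sequences of the light chain and both classical heavy chains are shown because they hold the same spaced pair of letter matches, and that of Tap1 because it holds one of the pair alone. Each is the 180 bases before the RefSeq start on GRCm38.p6, read 5′ to 3′ on the gene's strand. B2m is chr2:122147507-122147686 (plus strand), H2-K1 chr17:34000348-34000527 (minus strand), H2-D1 chr17:35262914-35263093 (plus strand) and Tap1 chr17:34187376-34187555 (plus strand). Capitals mark letter matches on either strand to the motifs that follow.

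B2m: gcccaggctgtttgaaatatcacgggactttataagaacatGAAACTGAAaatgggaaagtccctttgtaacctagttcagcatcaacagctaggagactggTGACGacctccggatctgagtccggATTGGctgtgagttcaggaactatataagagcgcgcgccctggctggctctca

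H2-K1: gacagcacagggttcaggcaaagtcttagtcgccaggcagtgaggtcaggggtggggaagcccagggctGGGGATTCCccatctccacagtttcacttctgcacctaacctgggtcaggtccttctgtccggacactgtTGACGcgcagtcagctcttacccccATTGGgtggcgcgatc

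H2-D1: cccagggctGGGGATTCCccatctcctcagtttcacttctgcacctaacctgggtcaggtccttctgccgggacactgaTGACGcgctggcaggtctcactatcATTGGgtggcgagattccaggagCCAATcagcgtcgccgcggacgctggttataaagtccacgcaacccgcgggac

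Tap1: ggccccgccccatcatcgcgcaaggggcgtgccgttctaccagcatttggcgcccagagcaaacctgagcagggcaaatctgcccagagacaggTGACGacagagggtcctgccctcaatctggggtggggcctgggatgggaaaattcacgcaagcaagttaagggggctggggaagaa

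Windows of 300 bases (250 before the start to 50 after) were found for 8 of the 10 members, and 5 sets of letters were searched on both strands. An interferon-stimulated response element was searched as GAAANNGAA, a GAS element as TTCNNNGAA, a kappaB site as GGGNNTTCC, the X2 box as TGACG and the Y box as CCAAT. GAAANNGAA was in the B2m window alone, against 8.56% of all 32851 windows, and TTCNNNGAA in the Psmb8 window alone, against 8.3%. GGGNNTTCC was in the H2-K1 and H2-D1 windows, against 5.82%. TGACG was in 5 of the 8 windows, against 20.8%, and CCAAT in 6 of 8, against 37.4%. The windows of Tap1 and Psmb9 overlap on opposite strands, and their matches to both motifs are the same genomic sites, each counted once for either gene. The X2 letters followed after exactly 20 bases by the Y letters of the other strand were in the windows of B2m, H2-K1 and H2-D1 and in 31 of 32851 windows in all (0.0944%). That spacing was noticed after the sequences were seen, and a match is a description of letters, not of binding. In B2m the pair began at position -78, in H2-K1 at -41 from the start shown and -55 from its other RefSeq start, and in H2-D1 at -101, with the start counted as 0.

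**Figure D1:**
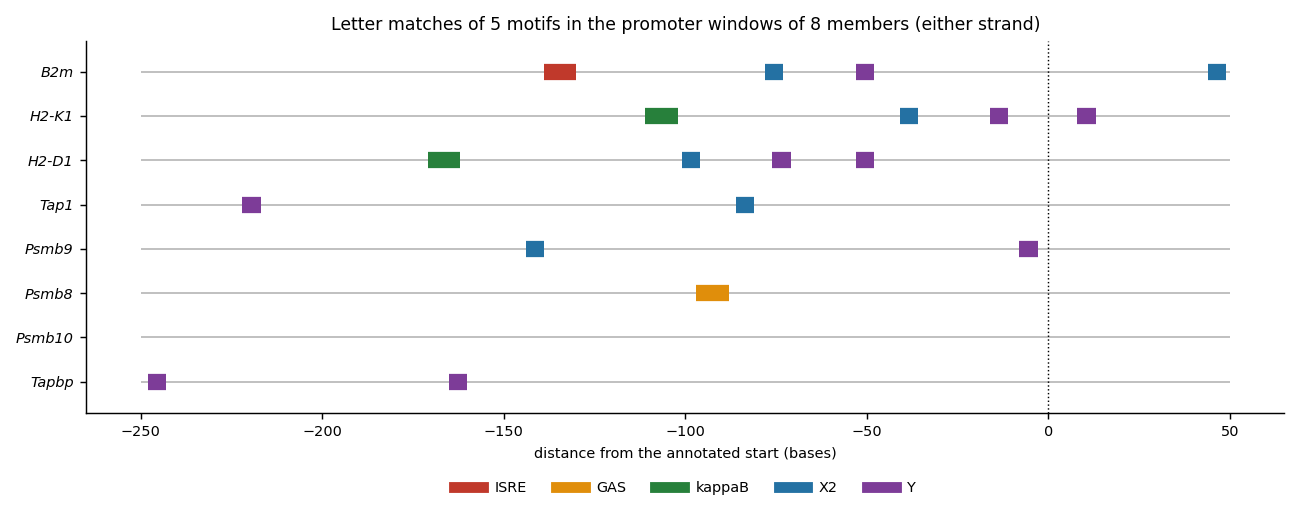
Positions of letter matches in the promoter windows of 8 members, as distance in bases from the annotated start (dotted line, 0). Each colored block is 1 match to a motif on either strand; the X2 and Y blocks of B2m, H2-K1 and H2-D1 stand at the same distance from each other, and Psmb10 has no match.

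Levels between genes were compared per kilobase of the principal transcript. B2m had the highest level, 1271 CPM per kb as a mean over the 8 libraries, followed by H2-D1 with 405 and H2-K1 with 234 CPM per kb. Psmb8 (46.2), Tapbp (41.7) and Psmb10 (35.7) came next on the same scale, then Tap2 (15.3), Tap1 (13.4) and Psmb9 (12.6). Nlrc5 was lowest at 5.39 CPM per kb by these lengths. Places in this order depend on the length used, and other lengths were not tried. All annotated exons of Psmb9 together cover 3660 bases against 1352 in its principal transcript, and those of Psmb8 3381 against 1628. Ranges over the 8 libraries overlapped between Psmb8 and Tapbp, between Tap2 and Tap1 and between Tap1 and Psmb9, and did not overlap between the other neighbors in that order. By CPM without length, B2m ranked 73rd and H2-D1 105th of the 13197 genes tested.

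The light chain gene B2m had 1224 and 1255 CPM for PARP1 WT, 1254 and 1317 for PARP1CKO, 992 and 937 for PARP2 WT and 877 and 891 for PARP2CKO. All 4 libraries of the PARP1 line were above all 4 of the PARP2 line, and within each line the WT and CKO groups differed by less. H2-K1, a classical heavy chain, had 411 and 345 CPM for PARP1 WT, 389 and 444 for PARP1CKO, 358 and 380 for PARP2 WT and 345 and 361 for PARP2CKO. H2-D1, the other classical heavy chain of this strain, had 872 and 768 CPM for PARP1 WT, 883 and 942 for PARP1CKO, 816 and 810 for PARP2 WT and 879 and 843 for PARP2CKO. The lowest and the highest library of H2-D1 were both in the PARP1 line. Neither heavy chain separated the lines as B2m did, since their PARP1 WT and PARP2 WT libraries overlapped.

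The peptide transporter is a dimer of the Tap1 and Tap2 products. Tap1 had 44.8 and 36.7 CPM for PARP1 WT, 40.8 and 47.9 for PARP1CKO, 36.5 and 37.1 for PARP2 WT and 34.5 and 37.5 for PARP2CKO. Tap2 had 53.7 and 51.7, 52.3 and 56.9, 51.7 and 53.7, and 48.5 and 53.1 CPM in the same order of groups. Tapbp, which encodes tapasin, the bridge between transporter and heavy chain, had 121 and 115, 123 and 134, 115 and 118, and 118 and 121 CPM. Tap1 spanned 1.39-fold from its lowest to its highest library, Tap2 1.17-fold and Tapbp 1.16-fold.

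The catalytic subunits of the immunoproteasome are encoded by Psmb8, Psmb9 and Psmb10. Psmb8 had 82.0 and 68.0 CPM for PARP1 WT, 75.9 and 78.9 for PARP1CKO, 70.7 and 73.7 for PARP2 WT and 77.0 and 75.4 for PARP2CKO. Psmb9 had 17.5 and 16.5, 16.9 and 19.7, 17.3 and 17, and 16.3 and 15.6 CPM in that order. Psmb10 had 45.3 and 44.5, 45.9 and 49.3, 48.4 and 48.3, and 49.0 and 44.0 CPM. The PARP1 WT libraries held both the lowest and the highest Psmb8 level of the 8. Nlrc5, the coactivator, had 48.7 and 38.4 CPM for PARP1 WT, 43.6 and 54.0 for PARP1CKO, 34.6 and 38.3 for PARP2 WT and 33.5 and 35.8 for PARP2CKO. It had the widest span of the members, 1.61-fold.

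**Figure D2:**
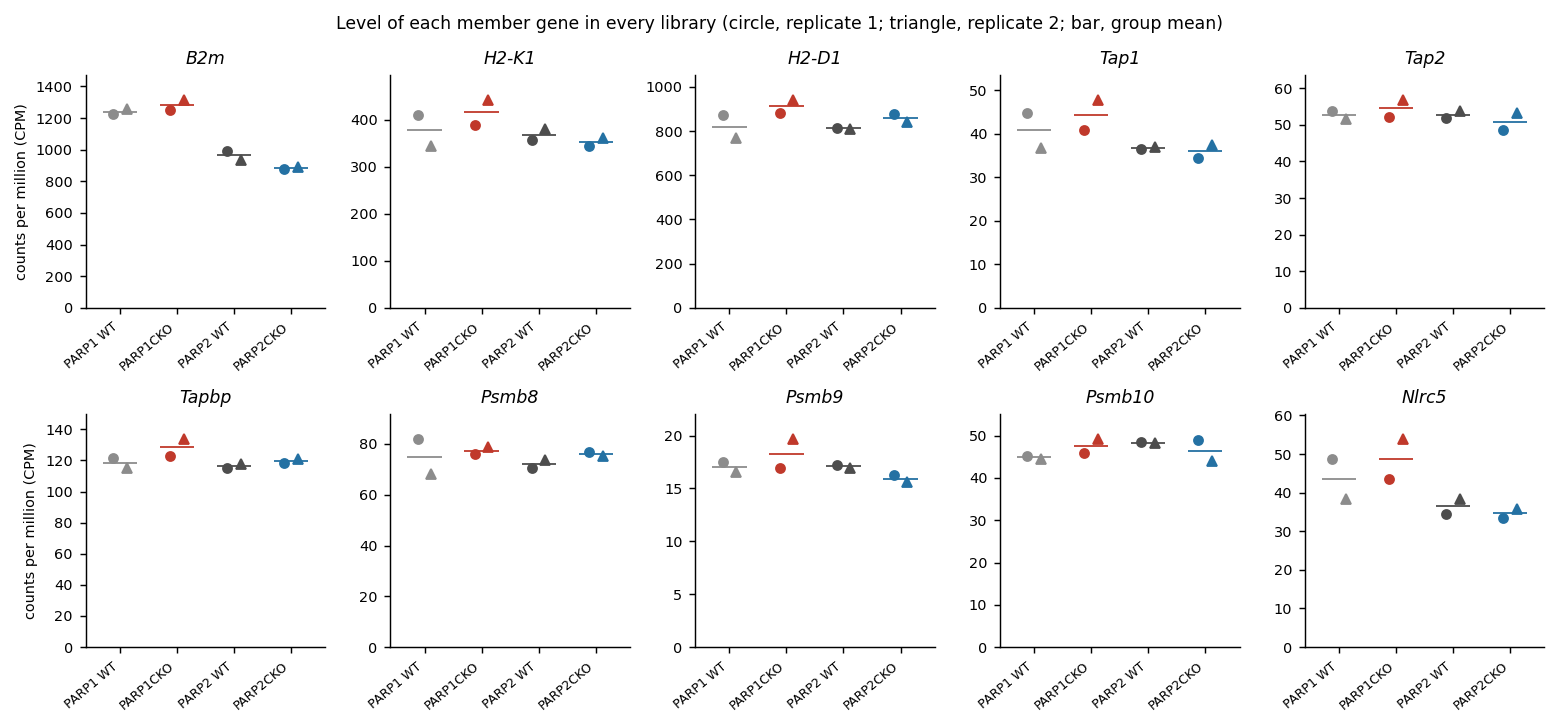
Level of each member in every library in CPM, with an axis from 0 and groups along the horizontal axis (circle, replicate 1; triangle, replicate 2; bar, mean of 2 libraries). B2m separates the PARP1 line (1224 to 1317 CPM) from the PARP2 line (877 to 992 CPM), and PARP1CKO replicate 2 is the highest library for 9 of the 10 members.

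The first comparison asked whether loss of PARP1 changed these genes. In PARP1CKO IMCs 0 of 10 members passed the quasi-likelihood test of edgeR at a Benjamini-Hochberg adjusted p of 0.05. The fitted log2 fold changes lay above 0 for all 10 members, from 0.05 for Psmb8 to 0.17 for Nlrc5, with a median of 0.11 beside 0.00586 over all genes tested. Of all genes, 14 passed (0.106%). At an unadjusted p under 0.05 there were 2 members, H2-D1 (log2 fold change 0.15, standard error 0.0640, adjusted p = 0.419) and Tapbp (0.12, standard error 0.0507, adjusted p = 0.441), beside 11.3% of all genes. DESeq2 and the likelihood-ratio test also called 0 members. Both rested in part on 1 library, since the fold change of H2-D1 was 0.06 without PARP1 WT replicate 2 and that of Tapbp 0.05 without PARP1CKO replicate 2. Groups did not overlap for H2-D1, Tapbp and Psmb10, which were higher in both PARP1CKO libraries, beside 21.0% of all genes. No member was lower in both, beside 20.2% of all genes.

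The 95% intervals bound what these libraries allow. For B2m the interval ran from -0.06 to 0.16 on the log2 scale, for H2-K1 from -0.06 to 0.34 and for Nlrc5 from -0.11 to 0.44. The direction leaned on single libraries: without PARP1CKO replicate 2 the fold changes of Tap2 and Psmb9 turned to -0.01, and without PARP1 WT replicate 2 those of Tap1 (-0.02), Psmb8 (-0.09) and Nlrc5 (-0.00263) fell below 0. In PARP1CKO replicate 2 the type I interferon response genes also stood highest, at a summed 291 CPM beside 171 in PARP1CKO replicate 1 and 192 and 126 in PARP1 WT. Their part in the members' levels was not tested.

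The second comparison asked the same of PARP2. In PARP2CKO IMCs 0 of 10 members passed, and 7 genes were called in all (0.053%). The fold changes were above 0 for 3 members and below 0 for 7, from -0.13 for B2m to 0.08 for H2-D1, with a median of -0.05 beside -0.0014 over all genes. Of the 7, 4 had values above 0 when 1 library was left out, Tap1 (0.03) and Tap2 (0.01) without PARP2CKO replicate 1, Psmb10 (0.02) without PARP2CKO replicate 2 and Nlrc5 (0.00372) without PARP2 WT replicate 2. B2m was the 1 member at an unadjusted p under 0.05 (log2 fold change -0.13, standard error 0.0483, adjusted p = 0.954), beside 4.83% of all genes, and its interval ran from -0.24 to -0.02. DESeq2 and the likelihood-ratio test called 0 members here too. H2-D1, Tapbp and Psmb8 were higher in both PARP2CKO libraries without overlap, beside 18.4% of all genes, and B2m and Psmb9 were lower without overlap, beside 18.8%.

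The difference between both deletions was tested directly as an interaction. No member passed, and 2 genes passed in all (0.0152%). The PARP2CKO effect was below the PARP1CKO effect for 9 members and above it for Psmb8, with a median difference of -0.15 beside -0.00699 over all genes. Without PARP1 WT replicate 1 Psmb8 turned to -0.10, and without PARP1 WT replicate 2 H2-D1 turned to 0.02 and Nlrc5 shrank from -0.24 to -0.07. B2m was the 1 member at an unadjusted p under 0.05 (difference -0.18, standard error 0.0683, adjusted p = 0.613), beside 7.69% of all genes. The interval for Nlrc5, from -0.63 to 0.16, was the widest of the 10. DESeq2 and the likelihood-ratio test called 0 members in this comparison as well.

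Comparison of both WT groups measured how far the lines stood apart without Cre. B2m fell by 0.36 on the log2 scale in PARP2 WT relative to PARP1 WT (standard error 0.0484, 95% interval from -0.47 to -0.25, adjusted p = 0.00703), and it was the 1 member of 10 called, beside 417 of all genes (3.16%). It was lower in 2 of 2 PARP2 WT libraries than in either PARP1 WT library, 965 ± 39.0 CPM against 1239 ± 21.7 CPM (mean ± SD of library values, n = 2 each). The call was lost without PARP2 WT replicate 2 (log2 fold change -0.32, adjusted p = 0.0662), and over all alternatives its adjusted p ranged from 1.8e-10 to 0.0662. The other 9 members had fold changes from -0.25 for Nlrc5 (adjusted p = 0.313) to 0.11 for Psmb10 (adjusted p = 0.367), with a median of -0.0239 beside 0.00131 over all genes. Without overlap, B2m and Nlrc5 were lower, beside 25.2% of all genes, and Psmb10 was higher, beside 26.7%. For Nlrc5 the gap was narrow, 38.3 against 38.4 CPM in the nearest libraries, and its fold change was -0.08 without PARP1 WT replicate 1 and -0.42 without PARP1 WT replicate 2.

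The comparison of PARP2CKO with PARP1CKO was added after the data were seen, to see the lines side by side in the libraries with Cre. All 10 members were lower in PARP2CKO, with a median log2 difference of -0.15 beside -0.00314 over all genes, and 2 members were called, beside 10.3% of all genes. B2m fell by 0.54 on the log2 scale (standard error 0.0485, adjusted p = 0.000576 by the quasi-likelihood test). Its level was 884 ± 9.40 CPM in PARP2CKO against 1286 ± 45.0 CPM in PARP1CKO (mean ± SD of library values, n = 2 each). Without any 1 of these 4 libraries B2m was still called, at fold changes from -0.57 to -0.50. Nlrc5 fell by 0.49 (standard error 0.123, adjusted p = 0.0384), and this call was lost without PARP1CKO replicate 2 (fold change -0.33, adjusted p = 0.207), without PARP2CKO replicate 1 (adjusted p = 0.218) and without PARP2CKO replicate 2 (adjusted p = 0.0999). Without PARP1CKO replicate 1 there were 4 calls, with Tap1 and Psmb9 added. Tap1 (-0.30, adjusted p = 0.0949) and H2-K1 (-0.24, adjusted p = 0.121) did not pass, although DESeq2 called both with B2m and Nlrc5. Without PARP1CKO replicate 2 they were -0.18 and -0.14. In 7 members the groups did not overlap, all lower in PARP2CKO, beside 28.4% of all genes, and none was higher without overlap, beside 28.0%. These 2 groups differ in line, floxed allele and deleted gene at once, and which of these a difference belongs to cannot be told apart.

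**Figure D3:**
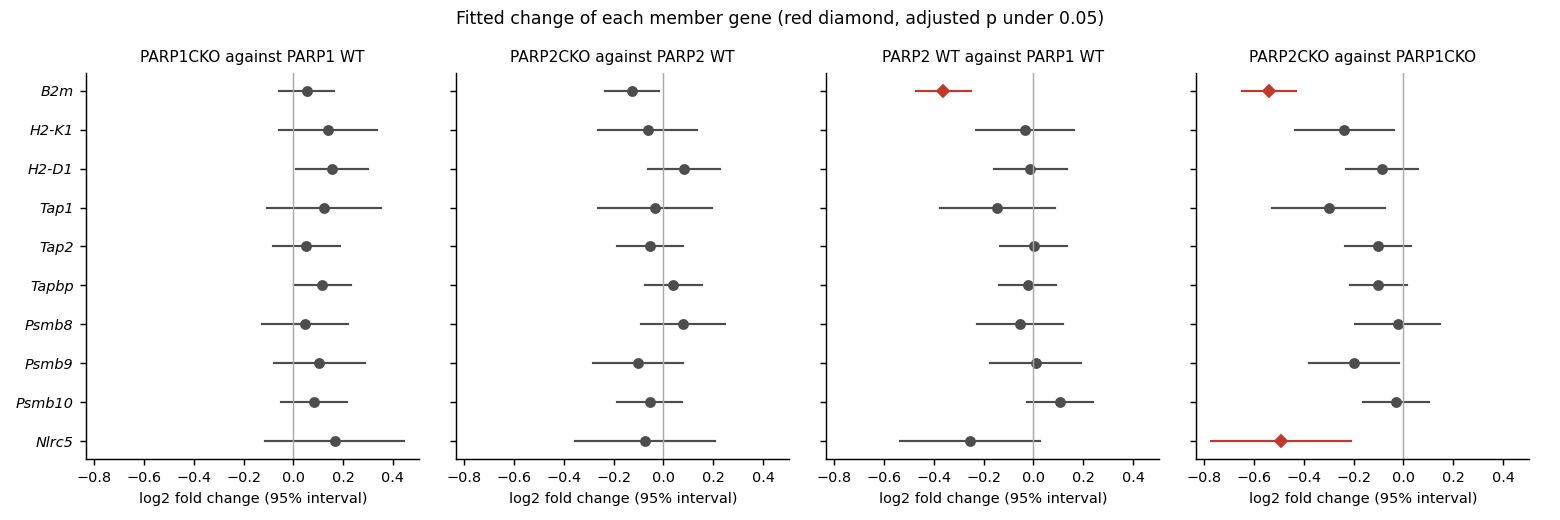
Log2 fold change of each member in 4 comparisons, with its 95% interval from the quasi-likelihood fit over 8 libraries (red diamond, adjusted p under 0.05; gray circle, not called). No member is called in either CKO comparison, and B2m is called in both comparisons between lines, at -0.36 and -0.54.

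Genes near B2m were also called between the lines. Within 2 Mb of B2m 46 other genes were tested, and 8 of them (17.4%) were called between the WT groups, beside the 3.16% of all genes. Between the CKO groups 18 of the 46 (39.1%) were called, beside the 10.3% of all genes. Of the 8, 6 were higher in PARP2 WT and 2 lower. They include Map1a (2.59, adjusted p = 0.00529) and Gatm (1.17, adjusted p = 0.0101), which were higher, and Vps39 (-0.42, adjusted p = 0.0311) and Slc30a4 (-0.51, adjusted p = 0.0176), which were lower. This window was chosen after the B2m result was seen, and what the neighbors share with B2m was not tested.

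Markers of several cell types that could remain in the culture moved with the line as well. The 5 B cell markers summed to between 27.5 and 39.8 CPM in the PARP1 line and between 7.78 and 10.6 CPM in the PARP2 line, none was at 0 in all libraries, and all 5 were called lower between the WT groups, beside 3.16% of all genes called there and 10.3% between the CKO groups. Erythroid markers summed to between 3.25 and 6.42 CPM in the PARP1 line and between 1.38 and 1.85 CPM in the PARP2 line, and markers of basophils and mast cells to between 12.3 and 17.8 and between 6.34 and 10.5 CPM. Of the erythroid markers 1 of 4 tested was called lower between the WT groups and 3 of 4 between the CKO groups, and of the basophil and mast cell markers 0 of 4 and 3 of 4. Markers of granulocyte progenitors went the other way, from 256 to 302 CPM in the PARP1 line against 347.2 to 391.9 CPM in the PARP2 line, with 2 of 4 called higher between the WT groups and 3 of 4 between the CKO groups. Monocyte markers summed to between 185 and 251 CPM in the PARP1 line and between 264 and 293 CPM in the PARP2 line, with 0 and 1 of 4 called. Of 5 macrophage markers 1 was called higher between the WT groups and 2 between the CKO groups. Neutrophil markers went both ways. Between the WT groups 2 of 6 were higher and 4 lower in PARP2 WT, with 1 called lower. Between the CKO groups 2 of 6 were called lower. Their sums overlapped, from 2102 to 2678 CPM in the PARP1 line and from 2219 to 2714 CPM in the PARP2 line. Sums of dendritic cell, T and NK cell, stromal cell and megakaryocyte markers also overlapped between the lines, with 0 called between the WT groups. Between the CKO groups 1 of 7 dendritic cell markers was called higher and 1 of 2 T and NK cell markers lower. There 0 stromal cell and 0 megakaryocyte markers were called. The 3 IMC markers tested (Itgam, Ly6c1 and Ly6c2) were higher in PARP2 WT than in PARP1 WT without overlap, beside 26.7% of all genes. Between the CKO groups 1 was higher without overlap, beside 28.0%. In PARP2CKO against PARP2 WT 2 were lower without overlap, beside 18.8%. In these 3 comparisons 0 were called. The part of any of these cells in the B2m level was not tested.

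Summed levels of interferon response genes were also lower in the PARP2 line, though the calls came mostly between the CKO groups. The 11 type I genes summed to between 126 and 291 CPM in the PARP1 line and between 70.7 and 107 CPM in the PARP2 line. Between the WT groups 1 of 11 was called, Oas2 (log2 fold change -0.77, adjusted p = 0.0187), beside 3.16% of all genes. Of the 11, 10 were lower in PARP2 WT without overlap, beside 25.2% of all genes. Between the CKO groups 9 of 11 were called, all lower in PARP2CKO, beside 10.3% of all genes. In PARP1CKO against PARP1 WT the 11 had a median log2 fold change of 0.55 with 0 called, and in PARP2CKO against PARP2 WT a median of -0.32 with 0 called. Without overlap, 1 was higher in PARP1CKO, beside 21.0% of all genes, and 9 were lower in PARP2CKO, beside 18.8%. The 9 interferon-gamma type GTPase genes summed to between 76.7 and 117 CPM in the PARP1 line and between 59.8 and 70.2 CPM in the PARP2 line, with 0 of 8 tested called between the WT groups and 6 of 8, all lower, between the CKO groups. Without overlap, 6 of the 8 were lower in PARP2 WT than in PARP1 WT, beside 25.2% of all genes. In PARP2CKO against PARP2 WT 4 were lower without overlap, beside 18.8%. The part of the interferon response in the levels of the members was not tested.

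**Figure D4:**
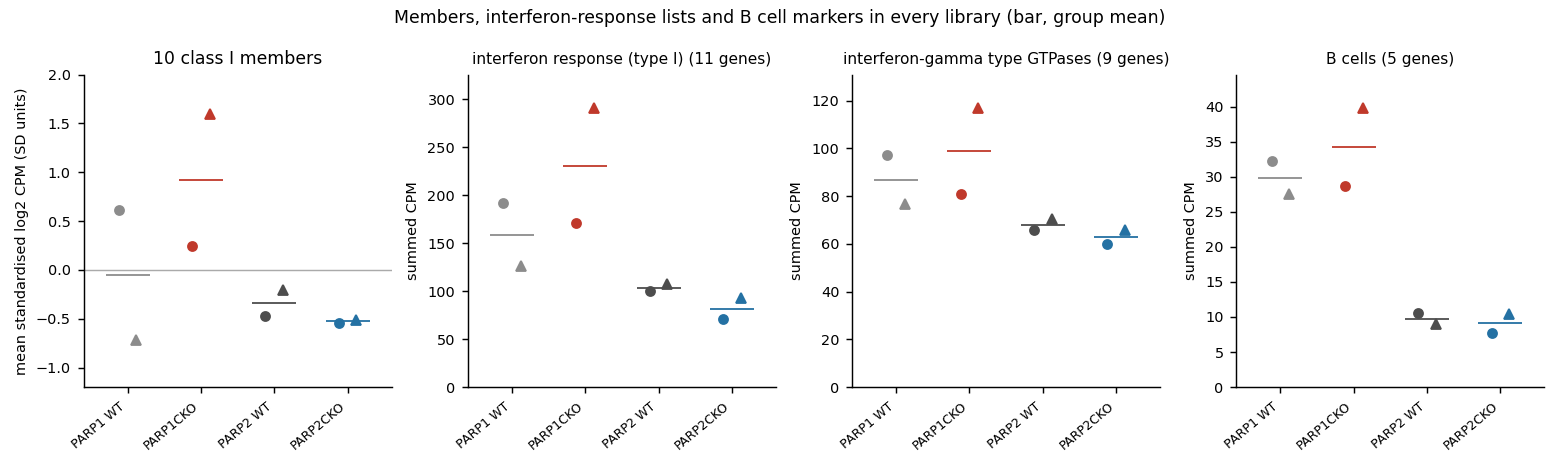
Mean standardised log2 CPM of the 10 members (SD units, first panel) and summed CPM of type I interferon response genes, interferon-gamma type GTPases and B cell markers in every library (circle, replicate 1; triangle, replicate 2; bar, mean of 2). PARP1CKO replicate 2 is highest in all 4 panels, at 1.6 SD units, 291, 117 and 39.8 CPM.

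Of the 45 pairs of members, 44 had a Pearson correlation of log2 CPM above 0, with a median of 0.654, a lowest of -0.172 and a highest of 0.977, over 8 libraries that share 4 groups. Over all pairs of tested genes 50% were above 0. Without PARP1CKO replicate 2, the highest library for 9 members, 34 of the 45 were above 0 and the median was 0.431. The mean standardised log2 CPM of the members was 1.6 SD units in PARP1CKO replicate 2 and 0.609 in PARP1 WT replicate 1, and lowest in PARP1 WT replicate 2 at -0.714. PARP2CKO replicate 1 was the lowest library for 5 members. The other genes whose profile was most like it over the 8 libraries were Matn2 (Pearson r = 0.988), Nampt (0.986), Mtmr3 (0.974), Nlrp3 (0.974) and Igtp (0.972), with Igtp, an interferon-inducible GTPase, between 9.54 and 14.2 CPM. These values are descriptions, since the libraries share groups and the interferon response sums were also highest in PARP1CKO replicate 2.

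Ratios within a library do not depend on its scaling. The immunoproteasome subunit Psmb8 replaces Psmb5 in the assembled particle, Psmb9 replaces Psmb6 and Psmb10 replaces Psmb7, and each pair was compared as counts per kilobase. The ratio of Psmb8 to Psmb5 was 0.529 and 0.475 for PARP1 WT, 0.480 and 0.5 for PARP1CKO, 0.450 and 0.456 for PARP2 WT and 0.445 and 0.454 for PARP2CKO. The ratio of Psmb9 to Psmb6 lay between 0.0388 and 0.0521, and that of Psmb10 to Psmb7 between 0.384 and 0.452. By these principal-transcript lengths, constitutive subunits were the more abundant of each pair in every library at the RNA level. Other lengths were not tried, and the ratio depends on them. All annotated exons of Psmb7 together cover 3421 bases against 1160 in its principal transcript, and those of Psmb10 1705 against 1311. The exact permutation test cannot call a ratio between 2 groups of 2 libraries, since its smallest two-sided p is then 0.333, and no model of the ratios over all groups was fitted.

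The ratio of H2-K1 to H2-D1 lay between 0.510 and 0.612. Heavy chains to light chain, as H2-K1 plus H2-D1 to B2m, was 0.470 and 0.397 for PARP1 WT, 0.453 and 0.472 for PARP1CKO, 0.528 and 0.569 for PARP2 WT and 0.619 and 0.602 for PARP2CKO. All 4 libraries of the PARP2 line were above all 4 of the PARP1 line, a log2 difference of 0.37. For Psmb8 to Psmb5 all 4 of the PARP2 line were below, a log2 difference of -0.14. Both gave p = 0.0286 by the two-sided exact permutation test of 4 against 4, the smallest it allows, and an adjusted p of 0.0715 over the 5 ratios, so neither passed. This comparison by line was added after the data were seen.

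**Figure D5:**
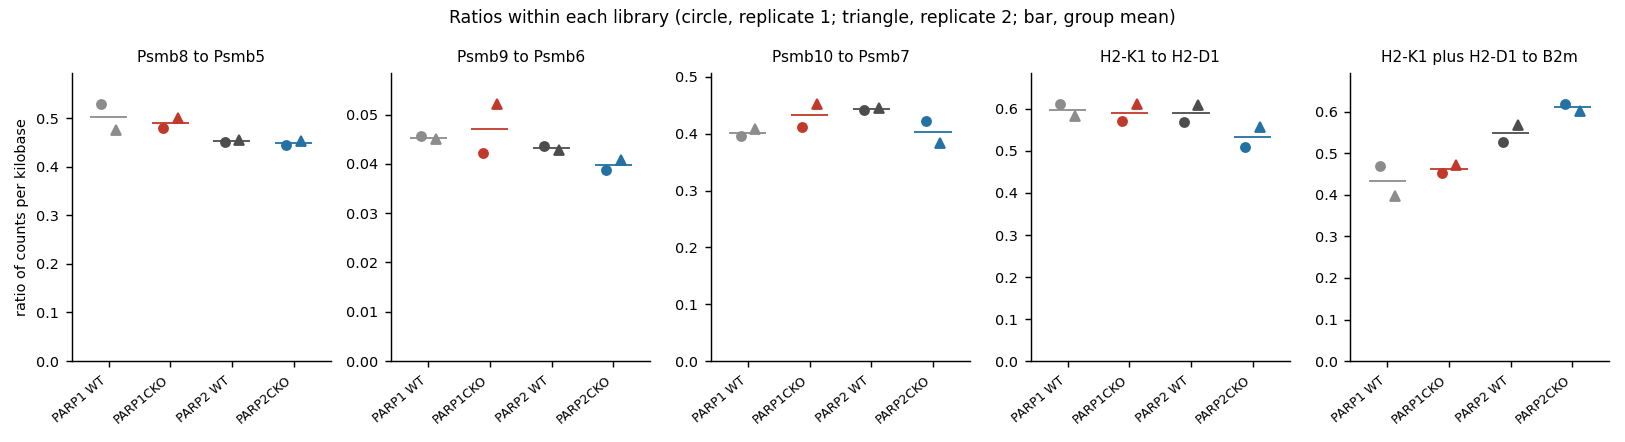
Ratios of counts per kilobase within each library for 3 pairs of immunoproteasome and constitutive subunits, for both heavy chains, and for heavy chains to light chain (circle, replicate 1; triangle, replicate 2; bar, mean of 2; axes from 0). The last ratio is between 0.397 and 0.472 in the PARP1 line and between 0.528 and 0.619 in the PARP2 line.

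Another 51 genes of the pathway were listed, of which 50 passed the filter. In both CKO comparisons, in the difference between them and between the WT groups, 0 of the 50 were called, and DESeq2 called 0 as well. The likelihood-ratio test called 1 between the WT groups, Irf8, and 0 in the others. At an unadjusted p under 0.05 there were 5, 1, 4 and 6 of 50 in these comparisons, beside 11.3%, 4.83%, 7.69% and 18.9% of all genes, so the list stood near or below the share over all genes. In PARP1CKO the median over the list was 0.03, with 32 above 0 and 18 below, and in PARP2CKO it was -0.00821, with 21 above and 29 below. The lists were drawn up with earlier results of these data known.

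The constitutive subunits Psmb5, Psmb6 and Psmb7 had log2 fold changes of 0.08, 0.05 and -0.02 in PARP1CKO and of 0.09, 0.02 and 0.08 in PARP2CKO, none called. Among 8 genes of peptide trimming and loading, 5 lay below 0 in PARP1CKO, where Pdia3, a disulfide isomerase of the loading complex, had -0.14 (standard error 0.0410, adjusted p = 0.288). Among 22 upstream regulators and partners, Irf1, an interferon-induced activator of these genes, had 0.14 (adjusted p = 0.548) in PARP1CKO, which was 0.03 without PARP1CKO replicate 2, and -0.04 (adjusted p = 0.978) in PARP2CKO. Ifnar1, a chain of the type I interferon receptor, had 0.13 (adjusted p = 0.287) in PARP1CKO. Nfyb, a subunit of the factor that binds the Y box, had 0.13 (adjusted p = 0.954) in PARP2CKO. Stat2, a transcription factor of the type I interferon response, differed by -0.47 (standard error 0.139, adjusted p = 0.568) between both effects, and H2-Q10 by -1.86 (standard error 0.600, adjusted p = 0.582), or by -2.91 without PARP2CKO replicate 1. Irf8, a myeloid regulator, had the smallest p of the list between the WT groups (0.17, adjusted p = 0.0674), followed by Irf2 (0.15, adjusted p = 0.118).

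Of 14 nonclassical and other B2m-binding heavy chains, 13 were tested, and in PARP1CKO they had a median of 0.13 with 10 above 0. H2-T10, listed here as a nonclassical heavy chain but annotated in GENCODE M21 as a polymorphic pseudogene, had 2.43 and 1.87 CPM in PARP1 WT. In PARP1CKO it had 2.60 and 7.68 CPM, and H2-T24 had 14.2 and 10.4 CPM in PARP1 WT against 10.9 and 32.9 CPM in PARP1CKO. In both genes it was PARP1CKO replicate 2 that stood apart from the other 7 libraries, and neither was called (adjusted p = 0.331 and 0.463). Without PARP1CKO replicate 1 both were called. H2-Q10, a secreted heavy chain known from liver, had 27 and 32 counts in PARP2 WT and 15 and 4 in PARP2CKO, with adjusted p = 0.840.

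Between the CKO groups 7 of the 50 were called, 5 lower and 2 higher in PARP2CKO, beside 10.3% of all genes, a share near that of the list. Those lower included Stat2 (-0.59, adjusted p = 0.00915), Irf1 (-0.37, adjusted p = 0.0288), H2-T24 (-1.67, adjusted p = 0.0378) and H2-Q10 (-2.00, adjusted p = 0.0265). Those higher were Pdia3 (0.21, adjusted p = 0.0150), which is within 2 Mb of B2m, and Calr (0.27, adjusted p = 0.0258), which encodes the chaperone calreticulin. DESeq2 and the likelihood-ratio test each called 9 of the list, with H2-T10 and Nfya added. With only the 4 libraries of this comparison in the quasi-likelihood fit the calls fell to 4, without Pdia3, Calr and H2-T24. Without PARP1CKO replicate 2 Stat2 was the 1 gene of the list still called, without PARP2CKO replicate 2 likewise, and without PARP2CKO replicate 1 there were 0.

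Counts of class I heavy chains are uncertain because these genes are close copies. The table holds a row H2-L, which neither annotation used here lists, and its counts were between 65.6% and 67.1% of those of H2-D1 in every library. H2-Q6 and H2-Q8 had the same counts in 8 of 8 libraries, as did H2-Q7 and H2-Q9. No member had a row equal to another in all libraries. How reads were shared among these genes is not given in the sources used here, and whether counting used the strand is also not given, so reads of Tap1 and Psmb9 in their 212 shared bases may not be told apart.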

How the data were processed

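Raw gene counts of 8 RNA-seq libraries of cultured IMCs, 2 in each of 4 groups, were used as deposited. The authors trimmed reads with fastq-mcf, mapped them to mm10 with TopHat 2.0.12, marked duplicates with Picard 1.127 and made the counts with featureCounts (Subread). The annotation, the strand setting and the treatment of duplicates and of reads with several hits are not given in the sources used here, and they bear on heavy chain genes above all. No other columns of per-sample values were present. The paper names edgeR, FPKM and a false discovery rate of 0.05, whereas the counts were tested here.

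All 8 libraries were fitted with the quasi-likelihood method of edgeR 4.0.16 in R 4.3.3, with filterByExpr, TMM factors, a mean for each group and Benjamini-Hochberg adjustment over 13197 genes at 0.05. CPM, counts per 1e6 of the TMM-scaled library size, used these factors, and log2 CPM a prior count of 2. A call means an adjusted p under 0.05, and groups that do not overlap have every library of one above every library of the other. Lengths came from the APPRIS principal transcript of GENCODE M21, and promoter windows from RefSeq (GRCm38.p6). Ratios were compared by exact permutation tests in scipy 1.17.1. Figures were drawn with matplotlib 3.10.9. Within groups the replicate libraries differed beyond sampling noise, at a mean chi-square of 9.17 to 13.9 per gene, and were kept as separate samples. Checked on 3 simulated tables of 13197 genes with 200 changed in each, for PARP1CKO against PARP1 WT, it found 20.0% of genes given a log2 change of 0.25, 65.3% at 0.5, 82.7% at 1 and 96.7% at 2, with 8.53% false among all calls.

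The members, the lists, the rule for named genes and the tests were chosen with earlier results of these data known. Named genes were the 10 members, Psmb5, Psmb6, Psmb7 and Irf1, in each comparison the pathway genes called and the 2 with the smallest p, and the 5 genes most like the members' mean profile. A gene that the rule also names is not reported here. H2-T10, H2-T24 and the neighbors of B2m were named after their values were seen. Alternatives were DESeq2 1.42.0 and its size factors, no composition factor, the likelihood-ratio test, only the 4 libraries of a comparison, no filter, a replicate block, an adjusted p of 0.1, a filter of at least 1 CPM in 2 libraries and leaving out each library.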

Additional observations from a re-analysis of the deposited data

How the results depend on the processing

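Of 390 fold changes of members under alternatives that left out no library, 379 kept their direction and their side of the threshold. With 1 library left out it was 210 of 240, and 24 reversed, none with a size over 0.17 in the full data. Between the WT groups Tap2, near 0 throughout, turned to -0.00124 with DESeq2's size factors, -0.0380 without a composition factor, -0.00132 with DESeq2 and -0.000158 with a minimum of 1 CPM in 2 libraries. Without a composition factor Psmb9 turned to -0.0307 there, Psmb6 to -0.00922 in PARP2CKO against PARP2 WT and Psmb5 to -0.0157 in the difference of effects. The cause was not tested.

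The count of pathway genes called between the WT groups rose from 0 to 1 at an adjusted p of 0.1, with the likelihood-ratio test and with no filter on low counts. It was also 1 (H2-T24) when either PARP1CKO library, which only informs the shared spread there, was left out. The count of members called between the CKO groups rose from 2 to 4 with DESeq2 and with no filter, and fell to 1 with the replicate block, where Nlrc5 had an adjusted p of 0.0585 in edgeR's quasi-likelihood test. The 7 pathway genes called there became 4 with only the 4 libraries of that comparison and 10 with no filter. The replicate numbers were not shown to pair libraries (correlation of deviations from -0.205 to 0.211), and the block changed no other count of members called. A pairing crossed in PARP1 WT, added after the data were seen, gave 0, 0, 0, 1 and 4 members called and 20, 9, 3, 674 and 1794 genes.

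Over all genes, the calls in PARP1CKO rose from 14 to 86 with DESeq2, 146 with the likelihood-ratio test and 101 with no filter, those in PARP2CKO from 7 to 27, 39 and 26, and those in the difference of effects from 2 to 46, 72 and 61. Between the WT groups they rose from 417 to 910 with the likelihood-ratio test and 872 with no filter.

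Leaving out 1 library gave from 0 to 2 pathway genes called in PARP1CKO, from 0 to 1 in the difference of effects, from 0 to 1 members called between the WT groups (0 without PARP2 WT replicate 2) and from 1 to 4 between the CKO groups. Fold changes that crossed 0 in PARP1CKO ranged from -0.0220 to 0.269 (Tap1), -0.0113 to 0.112 (Tap2), -0.0876 to 0.183 (Psmb8), -0.00853 to 0.211 (Psmb9), -0.00263 to 0.340 (Nlrc5) and -0.0618 to 0.0132 (Psmb7). In PARP2CKO they ranged from -0.0939 to 0.0269 (Tap1), -0.118 to 0.0120 (Tap2), -0.136 to 0.0191 (Psmb10), -0.145 to 0.00372 (Nlrc5) and -0.0520 to 0.0828 (Psmb6). In the difference of effects they ranged from -0.163 to 0.0202 (H2-D1), -0.104 to 0.166 (Psmb8), -0.0496 to 0.0674 (Psmb5) and -0.103 to 0.0322 (Psmb6). Between the WT groups they ranged from -0.156 to 0.0966 (H2-K1), -0.102 to 0.0815 (H2-D1), -0.287 to 0.00374 (Tap1), -0.0272 to 0.0277 (Tap2), -0.0621 to 0.0129 (Tapbp), -0.186 to 0.0849 (Psmb8), -0.0337 to 0.0476 (Psmb9) and -0.0724 to 0.00249 (Psmb7), and between the CKO groups from -0.0497 to 0.00568 (Psmb8) and -0.111 to 0.0438 (Psmb10). With 2 libraries in each group, a group left with 1 was assumed to vary like the others.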
